A study of Mus musculus with 8 samples.

Results

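The genes described here are 32 genes of sterol and fatty acid synthesis, chosen by name from the 21879 rows of a table of messenger RNA levels in C2C12 cells. They comprise 18 enzymes of the mevalonate and sterol pathway, 6 genes that control the pathway, and 8 enzymes that make and modify fatty acids. All 32 had a row, and all 32 passed the filter of a mean of at least 1 FPKM, fragment counts scaled by gene length and library size, which kept 11025 genes for testing. C2C12 is a line of mouse myoblasts, muscle precursor cells that can form myotubes in low serum. The groups were siNC, a control siRNA (4 libraries), and siFAM129B, an siRNA that targets Fam129b (4 libraries), both delivered with Lipofectamine RNAiMAX, and every sample is labelled as muscle differentiation. The stated media were fetal bovine serum for growth and a lower share of horse serum meant to bring on differentiation. Marker levels that bear on the state reached are given below. The time in either medium is not given in the sources used here. Nor is it given whether the libraries of a group stem from different cultures: a p-value here weighs the group difference against a spread between libraries that may be technical. The study asked what Fam129b does in muscle wasting; the comparison below asks whether lipid synthesis transcripts differed when it was depleted.

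Cells build cholesterol from acetyl-CoA through mevalonate, isoprenoids, squalene and lanosterol. The transcription factors SREBP1 and SREBP2, made from Srebf1 and Srebf2, are held in the endoplasmic reticulum by Insig proteins when sterols are plentiful. When sterols run low, Scap escorts them to the Golgi, where they are cut free to switch on sterol and fatty acid enzymes. Serum lipoproteins supply cholesterol to cultured cells, so the medium is a known input to this system.

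The targeted gene was lower in each siFAM129B library. Fam129b kept 58.8% of the siNC mean (exact two-sided permutation p = 0.0286 over 70 assignments, the smallest that 4 against 4 can give), 52.8% in siFAM129B libraries 1 to 3 and 76.5% in library 4. That library stood apart from the other 7 over the whole table: it lay above or below all of them for 77.6% of tested genes. Group differences are therefore given with and without it, apart from sterol enzymes with small differences of unchanged sign. The means of these are given without it, and the plot of differences shows both. Recovered whole reads numbered between 31466869 and 36031688 per library, and each of the 32 genes had at least 437 reads in each library. The myoblast markers were present, with Myod1 between 26.9 and 41.3 FPKM and Des, desmin, between 172 and 289.7 FPKM. Of 10 myotube markers, 6 reached a mean of 1 FPKM. Myog, a factor of early differentiation, reached 14.3 FPKM and Acta1, skeletal actin, 10.5 FPKM at most. Ckm was at most 0.984 FPKM, Myh3 at most 2.55 FPKM, and Myh8 was at 0 in every library. Markers of dividing cells were abundant in all 8 libraries. Mki67 stood between 66.6 and 90.4 FPKM, Top2a between 132.3 and 164.5 FPKM and Pcna between 184.9 and 249.8 FPKM. By these levels the cultures held dividing cells and little transcript of mature myotubes. The sample label alone thus does not establish how far the cells had differentiated.

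The pathway was expressed throughout in both groups. In siNC the levels ran from 11.2 ± 0.470 FPKM (SD, n = 4) for Tm7sf2 to 444 ± 22.2 FPKM (SD, n = 4) for Scd2, a stearoyl-CoA desaturase. The mean over all libraries placed Scd2 at percentile 99.1 of tested genes, Scd1 at 97.1, the farnesyl diphosphate synthase Fdps at 96.1, the fatty acid desaturase Fads2 at 95.2 and Srebf2 at 94.4. The lowest were Hsd17b7 at percentile 38.7 and Tm7sf2 at 39.7. Within the sterol branch the abundant enzymes were Fdps, the squalene epoxidase Sqle and the HMG-CoA synthase Hmgcs1, at 138 ± 3.72, 91.7 ± 2.14 and 85.0 ± 4.61 FPKM (SD, n = 4) in siNC. The reductase Dhcr7, which acts at the end of the pathway, stood at 19.1 ± 0.717 FPKM (SD, n = 4).

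**Figure D1:**
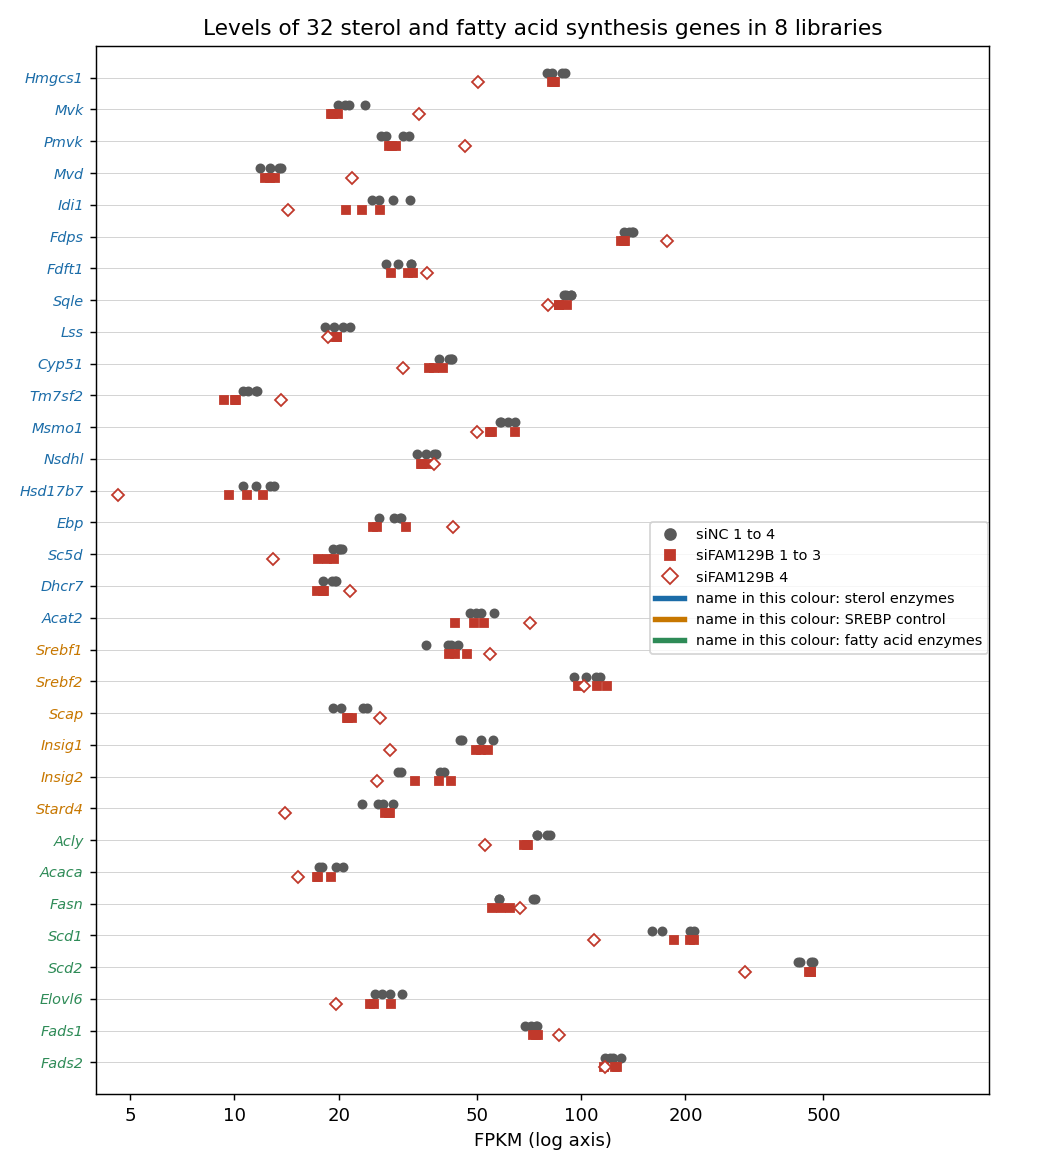
FPKM of the 32 genes (log axis) in each library, with siNC as grey circles, siFAM129B libraries 1 to 3 as filled red squares and siFAM129B library 4 as open diamonds; the colour of a name gives its role. Filled squares and circles overlap for 30 of the 32 genes, while open diamonds lie above or below all other points for 27.

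No gene of the set passed the test. With all 8 libraries, 0 of 32 members and 0 of 11025 tested genes (0.0%) had an adjusted p under 0.05 in limma. The alternative, voom on recovered reads, also called 0 genes. Even the targeted gene Fam129b was not called, with a log2 difference of -0.78 ± 0.13 (SE; limma adjusted p = 0.784). Smaller differences could thus be missed too. At an unadjusted p under 0.05, 2 members, Idi1 and Acly, had lower values with siFAM129B, where 0.707% of tested genes did, and 0 had higher values, where 1.78% did. Without siFAM129B library 4, 0 members again passed, and 0.00908% of genes did, which is Fam129b alone. Members at an unadjusted p under 0.05 then numbered 3, Acly, Tm7sf2 and Idi1, all with lower values, against 1.72% of tested genes, and 0 had higher values, against 2.58%. How closely the differences were bounded depended on library 4. The intervals with and without it rest on a spread between libraries that may be technical. Without library 4 the 95% intervals of all 32 members lay within 0.47 of 0 on the log2(FPKM + 1) scale, a 1.38-fold change on that scale, and 19 lay within 0.25. With library 4 the bound was 0.94, or 1.91-fold, and 5 lay within 0.25.

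Small differences of the sterol enzymes lay mostly on one side when library 4 was left out. Of the 18 enzymes, 17 had a log2 difference below 0, with a median of -0.072, while 49.3% of the 11014 tested genes lay below 0 and their median was 0.0019. Fdft1, squalene synthase, was the exception at 0.024. With all 8 libraries 11 of the 18 lay below 0 (median -0.032), where 49.4% of tested genes did. The 18 values come from the same libraries, so their signs are not independent observations, and each singly missed the threshold. The groups also overlapped by library. The median of the 18 enzymes relative to the siNC mean was -0.11, -0.094 and -0.031 in siFAM129B libraries 1 to 3 and 0.12 in library 4. In siNC it was -0.00017, -0.066, 0.038 and 0.020, so siNC library 2 lay below siFAM129B library 3.

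Idi1 and Hsd17b7 had the largest differences with all libraries. Idi1 is the isomerase that interconverts the isoprenoid building blocks. Idi1 stood at 26.1, 24.9, 28.7 and 32.2 FPKM in siNC libraries 1 to 4 and at 21.0, 23.4, 26.3 and 14.3 FPKM in siFAM129B libraries 1 to 4. Library 4 was lowest, and siFAM129B library 3 overlapped siNC. Its log2 difference was -0.40 ± 0.17 (SE; limma adjusted p = 0.784) with all libraries and -0.23 ± 0.10 (SE; adjusted p = 0.870) without library 4. Hsd17b7, a sterol ketoreductase, had the widest spread, with 11.5, 10.6, 12.7 and 13.0 FPKM in siNC and 9.64, 10.9, 12.1 and 4.60 FPKM in siFAM129B. Its difference of -0.40 ± 0.24 (SE) shrank to -0.13 ± 0.094 (SE) without library 4.

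Enzymes that convert lanosterol towards cholesterol followed. Cyp51, the lanosterol demethylase, stood at 41.6, 38.9, 42.0 and 42.5 FPKM in siNC and at 37.5, 36.3, 40.1 and 30.6 FPKM in siFAM129B. Sc5d, a sterol desaturase, stood at 20.1, 20.2, 19.2 and 20.5 FPKM in siNC and at 17.4, 18.5, 19.3 and 12.9 FPKM in siFAM129B. In both genes siFAM129B library 3 reached into the siNC range and library 4 was lowest. Their log2 differences were -0.19 ± 0.097 and -0.23 ± 0.12 (SE) with all libraries, and -0.12 ± 0.056 and -0.11 ± 0.057 (SE) without library 4. Tm7sf2, a sterol reductase, was the sterol enzyme whose groups did not overlap once library 4 was left out, where 2.58% of tested genes were lower in that way; 0 members were higher in that way, against 3.25%. Its siNC libraries held 10.6, 10.9, 11.5 and 11.6 FPKM and its siFAM129B libraries 10.0, 9.32, 10.1 and 13.6 FPKM, so library 4 was the highest of all 8. Its log2 difference was -0.059 ± 0.12 (SE) with library 4 and -0.17 ± 0.063 (SE) without it.

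Fdps, the most abundant sterol enzyme, stood at 138, 141, 140.4 and 133 FPKM in siNC and at 134, 133, 130.5 and 176 FPKM in siFAM129B, and only library 4 lay outside 130.5 to 141. The remaining enzymes are given without library 4, and the plot of levels shows each in library 4. Hmgcs1 averaged 83.5 FPKM against 85.0 in siNC, a log2 difference of -0.024 ± 0.053 (SE) that was -0.20 ± 0.16 (SE) with library 4. The kinase Mvk averaged 19.4 against 21.4 FPKM, a difference of -0.14 ± 0.068 (SE) that was 0.060 ± 0.18 (SE) with library 4. Pmvk, the next kinase, averaged 28.5 against 29.1 FPKM. The decarboxylase Mvd averaged 12.7 against 12.9 FPKM. Sqle averaged 88.0 against 91.7, the lanosterol synthase Lss 19.6 against 19.9, and the demethylating enzymes Msmo1 and Nsdhl 58.2 against 60.8 and 35.1 against 36.2. The isomerase Ebp averaged 27.4 against 28.9, Dhcr7 17.8 against 19.1, and Acat2, a thiolase that feeds the pathway, 48.3 against 51.2 FPKM. Fdft1 averaged 30.9 against 30.4 FPKM. With library 4 the log2 differences of Pmvk, Mvd, Ebp and Acat2 changed sign. They were -0.026 ± 0.072, -0.027 ± 0.066, -0.079 ± 0.086 and -0.084 ± 0.078 (SE) without it. With it they were 0.14 ± 0.16, 0.16 ± 0.17, 0.079 ± 0.16 and 0.055 ± 0.14 (SE). Fdps changed sign too, from -0.058 ± 0.042 (SE) without library 4 to 0.045 ± 0.11 (SE) with it.

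**Figure D2:**
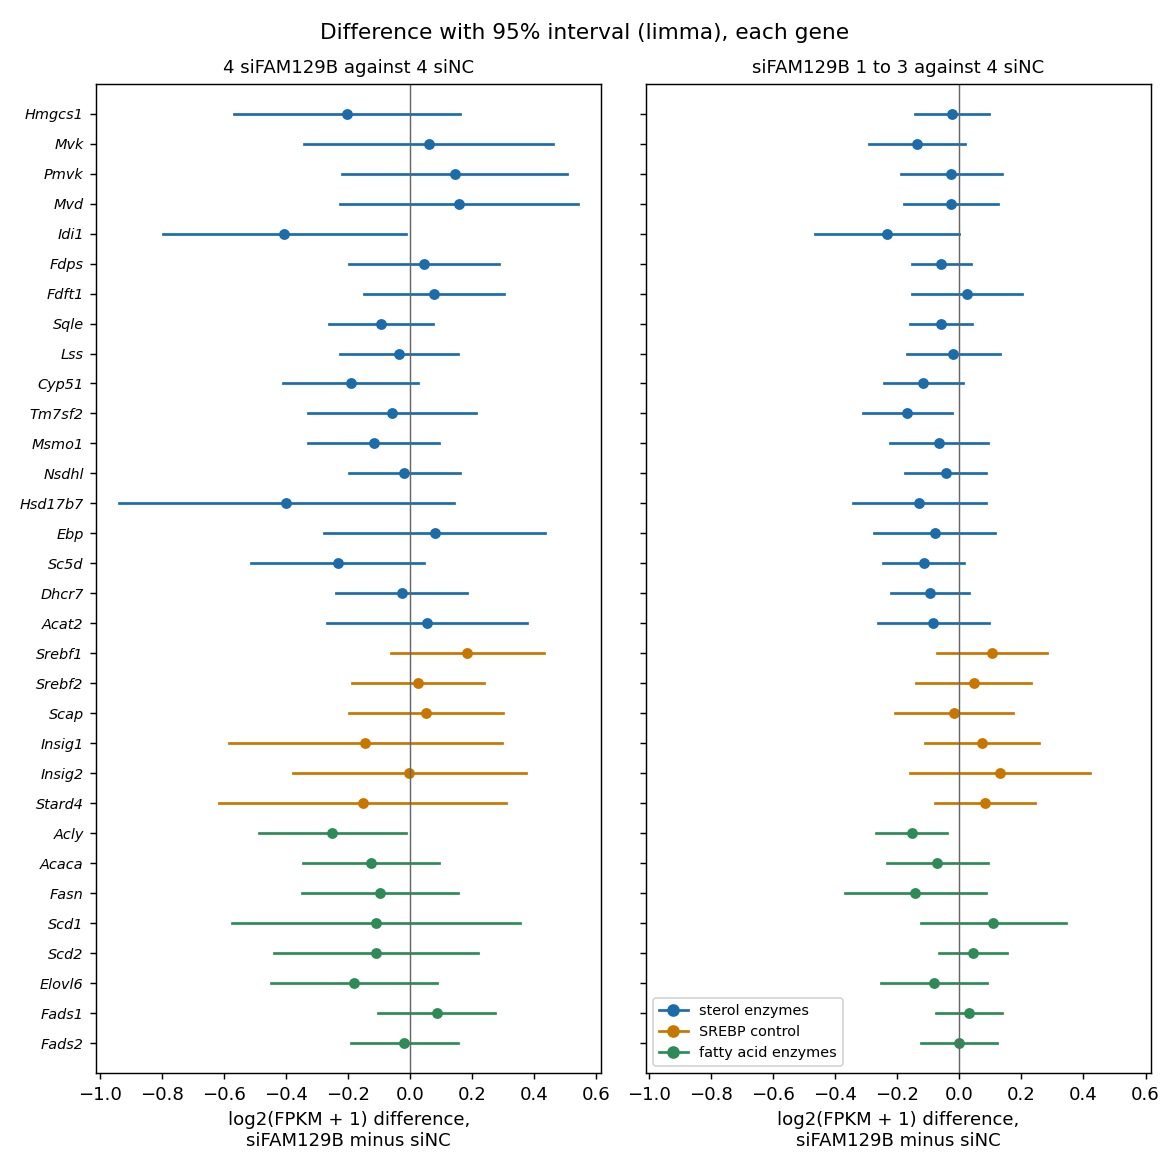
Difference between siFAM129B and siNC on the log2(FPKM + 1) scale for each of the 32 genes, as points with 95% intervals from limma, with all 4 siFAM129B libraries (left) and with libraries 1 to 3 (right). Intervals narrow on the right, where 17 of 18 sterol enzymes lie left of 0 and 29 of 32 intervals hold 0.

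Markers of culture state also differed between libraries, with 0 called, and their part in these values was not tested. The 7 markers of dividing cells, none at 0, lay below 0 without library 4 (7 of 7, median -0.13), and 6 of 7 did with it (median -0.078). Their summed level was 696 to 807 FPKM in siNC and 649.7 to 748 FPKM in siFAM129B, with library 4 the highest of the latter. By library their median relative to siNC was -0.093, -0.10, 0.052 and 0.14 in siNC libraries 1 to 4 and -0.21, -0.15, -0.0043 and 0.10 in siFAM129B libraries 1 to 4. siFAM129B libraries 1 and 2 were the lowest of the 8 both here and for the sterol enzymes. Of 10 myotube markers, 6 entered the fit with all libraries, and 0 of these lay above 0 (median -0.52), as did 0 of 7 without library 4 (median -0.51). Their median by library was 0.60, 0.61, -0.42 and -0.77 in siNC and -0.19, -0.33, -1.11 and -0.76 in siFAM129B, an order unlike that of the sterol enzymes. The sum over the 10 was 19.2 to 55.3 FPKM in siNC and 12.8 to 29.7 FPKM in siFAM129B. In bulk samples fewer cells of a type and less RNA per cell cannot be told apart. Markers of adipocytes, which make fat at high rates, were mixed. Of 12 adipocyte markers, 4 reached a mean of 1 FPKM. These were Pparg (5.12 to 9.13 FPKM), Cebpa (6.49 to 10.2 FPKM), Lipe (3.86 to 7.26 FPKM) and Pnpla2 (10.7 to 17.2 FPKM). Cidec, Lep and Retn were at 0 in every library, Adipoq was at most 0.0496 FPKM and Plin1 at most 0.0622 FPKM. The sum of the 12 was 31.6 to 34.1 FPKM in siNC. It was 32.5 to 36.5 FPKM in siFAM129B libraries 1 to 3 and 42.0 FPKM in library 4.

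SREBP target promoters are known to pair a sterol regulatory element with sites for NF-Y and Sp1. The upstream sequences of 4 sterol enzymes are shown because these enzymes either had the smallest p in the branch with all 8 libraries (Idi1, Cyp51, Sc5d) or hold the one match to the full element (Hmgcs1); they were chosen after their values were seen. Each is the 250 bases before the start in RefSeq on GRCm38.p6, not the mm9 build named for the files: Hmgcs1 at chr13:119690101-119690350 (+), Idi1 at chr13:8885356-8885605 (+), Cyp51 at chr5:4104698-4104947 (-) and Sc5d at chr9:42264301-42264550 (-). Capitals mark matches, on either strand, to the sterol regulatory element TCACNCCAC, its looser form NCACNCCAN, the NF-Y box CCAAT, the Sp1 box GGGCGG and the E-box CACGTG. Every full element is also a looser one.
Hmgcs1: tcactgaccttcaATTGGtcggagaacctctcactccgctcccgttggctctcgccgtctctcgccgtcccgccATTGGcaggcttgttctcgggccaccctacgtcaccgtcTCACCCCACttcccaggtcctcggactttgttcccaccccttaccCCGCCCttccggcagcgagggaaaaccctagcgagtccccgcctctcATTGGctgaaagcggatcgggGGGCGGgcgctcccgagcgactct
Idi1: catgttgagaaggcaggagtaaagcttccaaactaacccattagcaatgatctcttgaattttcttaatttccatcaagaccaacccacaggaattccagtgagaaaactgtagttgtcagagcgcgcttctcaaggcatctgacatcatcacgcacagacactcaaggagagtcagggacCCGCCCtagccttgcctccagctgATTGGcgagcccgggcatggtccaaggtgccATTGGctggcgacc
Cyp51: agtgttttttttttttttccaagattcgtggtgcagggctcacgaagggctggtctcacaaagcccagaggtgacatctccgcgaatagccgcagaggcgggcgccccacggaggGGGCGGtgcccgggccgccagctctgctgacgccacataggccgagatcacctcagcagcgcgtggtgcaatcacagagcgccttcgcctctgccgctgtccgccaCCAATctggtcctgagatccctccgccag
Sc5d: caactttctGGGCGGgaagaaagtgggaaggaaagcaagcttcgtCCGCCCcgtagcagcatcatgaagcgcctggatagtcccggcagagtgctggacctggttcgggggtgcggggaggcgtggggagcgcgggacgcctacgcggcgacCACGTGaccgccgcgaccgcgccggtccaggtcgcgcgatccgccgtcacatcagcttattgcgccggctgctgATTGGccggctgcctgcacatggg
Positions count back from the start. In Hmgcs1 the full element spans -137 to -129, with NF-Y boxes on the opposite strand beginning at -237, -176 and -45 and Sp1 boxes at -92 and -24. In Idi1, NF-Y boxes begin at -45 and -14 and an Sp1 box at -69, and in Cyp51 an NF-Y box begins at -29 and an Sp1 box at -135. Sc5d has Sp1 boxes at -241 and -205, an E-box at -98 and an NF-Y box at -24.

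The tables held windows of 300 bases, from 250 before to 50 after a start, for 25 of the 32 genes, and a gene counted when any of its windows matched. The others are Fads1, Sqle, Scd1, Scd2, Fdps, Stard4 and Fdft1. An NF-Y box was in 20 of 25 (80%), against 43.4% of the 8550 tested genes with a window and 41.1% of all 27025 symbols. An Sp1 box was in 21 of 25 (84%), against 71.5% of tested genes and 38.2% of all. Both boxes were in 17 of 25 (68%), against 28.5% of tested genes and 14.5% of all. The full sterol element was in 1 of 25 (4%), against 1.37% of tested genes and 1.44% of all, and its looser form in 6 of 25 (24%), against 20.3% and 20.5%. An E-box was in 5 of 25 (20%), against 12.1% and 8.09%. These matches describe the letters in the window and are no evidence of binding.

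Genes that control the pathway lay mostly on the other side of 0 from the sterol enzymes when library 4 was left out. Of 6, 5 lay above 0 without that library (median 0.077), where 50.7% of tested genes did, and 3 with all libraries (median 0.011), where 50.6% did. None passed the test, and all 6 had overlapping groups. Srebf2, the sterol-directed factor, stood at 110.3, 113, 103 and 95.3 FPKM in siNC and at 119, 111, 97.8 and 102 FPKM in siFAM129B. The log2 difference of Srebf2 was 0.025 ± 0.095 (SE) with all libraries and 0.047 ± 0.081 (SE) without library 4. Srebf1, the factor tied to fatty acid synthesis, stood at 42.2, 41.4, 44.0 and 35.7 FPKM in siNC and at 47.0, 43.1, 41.7 and 54.8 FPKM in siFAM129B. Library 4 held the highest Srebf1 of all 8. Its log2 difference was 0.18 ± 0.11 (SE; limma adjusted p = 0.784) with all libraries and 0.11 ± 0.078 (SE; adjusted p = 0.870) without library 4.

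The proteins around SREBP showed how far library 4 could turn a direction. Insig1, itself an SREBP target that retains Scap, stood at 51.4, 55.7, 45.5 and 44.8 FPKM in siNC and at 51.6, 54.0, 49.7 and 28.0 FPKM in siFAM129B. Its log2 difference was -0.14 ± 0.20 (SE) with library 4 and 0.072 ± 0.081 (SE) without it. Insig2, a second retention protein, stood at 40.1, 39.3, 29.6 and 30.2 FPKM in siNC and at 42.0, 38.9, 33.2 and 25.8 FPKM in siFAM129B. The log2 difference of Insig2 was -0.0019 ± 0.17 (SE) with library 4 and 0.13 ± 0.13 (SE) without it. Both Insig genes were higher in replicates 1 and 2 than in replicate 3 of each group. Stard4, a cytosolic sterol carrier, stood at 28.8, 26.8, 23.4 and 26.0 FPKM in siNC and at 28.1, 27.1, 28.0 and 14.0 FPKM in siFAM129B. It changed sign too, from -0.15 ± 0.21 to 0.082 ± 0.071 (SE). Scap stood at 20.3, 19.3, 24.2 and 23.5 FPKM in siNC and at 21.3, 21.1, 21.9 and 26.3 FPKM in siFAM129B, with library 4 the highest. The log2 difference of Scap was 0.052 ± 0.11 (SE) with library 4 and -0.018 ± 0.084 (SE) without it.

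Among the fatty acid enzymes, Acly had the clearest separation. ATP citrate lyase, its product, makes the cytosolic acetyl-CoA that both branches use. Acly stood at 74.5, 74.5, 79.8 and 81.3 FPKM in siNC and at 68.3, 70.01, 70.4 and 53.0 FPKM in siFAM129B. Every siFAM129B library lay below every siNC library, with and without library 4, as did 1.46% and 2.58% of tested genes. It was the 1 member of 32 whose groups did not overlap with all libraries, and 1 of 2 without library 4. The log2 difference was -0.25 ± 0.11 (SE; limma adjusted p = 0.784) with library 4 and -0.15 ± 0.050 (SE; adjusted p = 0.870) without it, so it did not pass the test. The mean was 69.6 ± 1.13 FPKM (SD, n = 3) in libraries 1 to 3 and 77.5 ± 3.53 FPKM (SD, n = 4) in siNC.

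The other fatty acid enzymes overlapped between groups. The carboxylase Acaca stood at 17.6, 17.9, 20.5 and 19.6 FPKM in siNC and at 17.3, 17.4, 19.0 and 15.3 FPKM in siFAM129B, and the elongase Elovl6 at 26.6, 25.4, 28.2 and 30.4 FPKM in siNC and at 24.7, 25.3, 28.2 and 19.6 FPKM in siFAM129B. Library 4 was the lowest of all 8 in both. Their log2 differences were -0.13 ± 0.098 and -0.18 ± 0.12 (SE), and -0.071 ± 0.071 and -0.082 ± 0.075 (SE) without library 4. The desaturase Scd2 stood at 459, 467, 429 and 422 FPKM in siNC and at 461, 459, 454 and 297 FPKM in siFAM129B, so libraries 1 to 3 lay within the siNC range. The log2 difference of Scd2 changed from -0.11 ± 0.15 (SE) to 0.045 ± 0.048 (SE) without library 4. Scd1 likewise changed from -0.11 ± 0.21 (SE) to 0.11 ± 0.10 (SE) without library 4. Fads1, a desaturase of polyunsaturated chains, stood at 74.3, 74.5, 71.5 and 69.1 FPKM in siNC and at 74.3, 74.9, 72.5 and 86.5 FPKM in siFAM129B. The log2 difference of Fads1 was 0.087 ± 0.084 (SE) with library 4 and 0.031 ± 0.047 (SE) without it. Fads2 averaged 123 ± 5.53 FPKM (SD, n = 4) in siNC and 122 ± 5.38 FPKM (SD, n = 4) in siFAM129B, or 123 ± 5.64 FPKM (SD, n = 3) without library 4. The log2 difference of Fads2 was -0.018 ± 0.076 (SE) with library 4 and -0.0018 ± 0.054 (SE) without it. Of the 8 enzymes, 7 lay below 0 with all libraries (median -0.11) and 5 without library 4 (median -0.036).

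**Figure D3:**
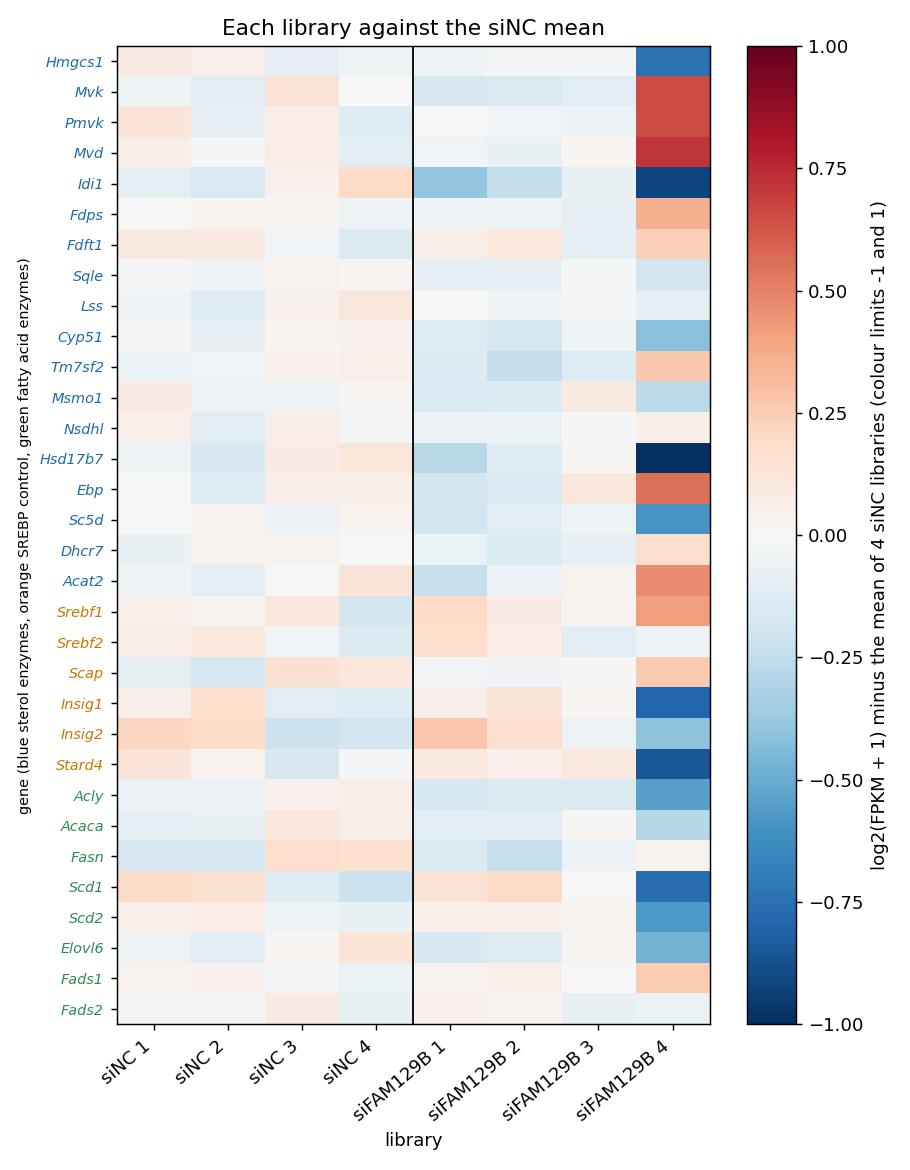
Each gene (rows) in each library (columns) as log2(FPKM + 1) minus the mean of the 4 siNC libraries, with red above and blue below; Hsd17b7 in siFAM129B library 4 lies past the colour limit. The column of siFAM129B library 4 holds the deepest colours in both directions, and 12 of 32 genes there lie above and 15 below the other 7 libraries.

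siFAM129B library 4 split the pathway by gene rather than moving it one way, as it split the tested genes as a whole. Of the 32 genes, 12 lay above the other 7 libraries, where 39.9% of tested genes did, and 15 below, where 37.7% did. The 12 included 9 sterol enzymes, and the 15 included 7 sterol enzymes and 5 fatty acid enzymes. Relative to the mean of siFAM129B libraries 1 to 3, Mvk was at 176%, Mvd at 172% and Pmvk at 163%, 3 enzymes that act in succession on mevalonate. Idi1, the next enzyme, was at 60.5% and Hmgcs1 at 60.3%. Hsd17b7 was at 42.4%, Stard4 at 50.6%, Insig1 at 54.1% and Scd1, which stood at 206, 212, 185 and 109 FPKM in siFAM129B, at 54.2%. The median size of the deviation was 0.40 on the log2 scale both in the 32 genes and in all tested genes.

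These deviations ran with the GC content and length of the transcripts. Members above the other libraries had a median GC content of 55.5% in their longest coding transcript and those below 46.0%. Their median implied lengths were 1921 and 3542 bases. Across the 32 genes the deviation had a Spearman rho of 0.79 with GC content and -0.50 with length; over the tested genes with a value the figures were 0.62 (10683 genes) and -0.60 (11024 genes). The points are genes within the same 4 libraries, not replicates. Mvk and Mvd had GC contents of 59.6% and 59.3%, against 41.9% for Idi1 and 43.1% for Hmgcs1. Whether GC content or length set these deviations was not tested.

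**Figure D4:**
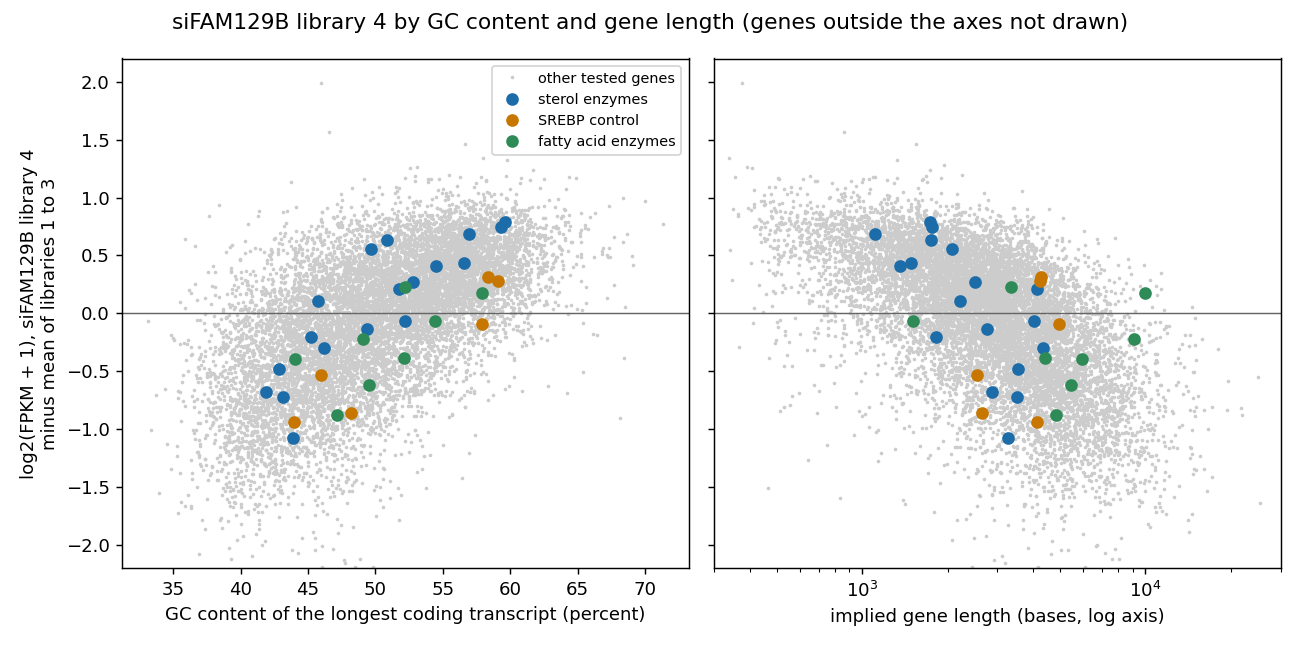
Deviation of siFAM129B library 4 from the mean of siFAM129B libraries 1 to 3 (log2(FPKM + 1) scale) against transcript GC content (left) and implied gene length on a log axis (right), for the 32 genes in colour by role and other tested genes in grey. Coloured points follow the grey cloud, from low GC content and negative deviations to high GC content and positive ones (rho 0.79 for the 32 genes).

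Replicate number also ordered part of the set in both groups. Leaving out siFAM129B library 4, 9 of the 32 genes were higher in replicates 3 and 4 than in every library of replicates 1 and 2, where 18.8% of tested genes were, and 7 were lower, where 18.2% were. The 9 were Idi1, Sqle, Hsd17b7, Ebp, Acat2, Scap, Acaca, Fasn and Elovl6, and the 7 were Fdft1, Srebf2, Insig1, Insig2, Scd1, Scd2 and Fads1. Fasn, fatty acid synthase, stood at 57.8, 57.9, 73.4 and 72.7 FPKM in siNC libraries 1 to 4 and at 58.9, 55.4, 62.5 and 66.8 FPKM in siFAM129B libraries 1 to 4. In siNC it was thus 0.33 higher on the log2 scale in replicates 3 and 4, and in siFAM129B replicate 3 was 0.13 above replicates 1 and 2. Its group difference was -0.097 ± 0.11 (SE) with library 4 and -0.14 ± 0.10 (SE) without it. Scd1 stood at 212, 207, 171 and 160.2 FPKM in siNC, 0.34 lower in replicates 3 and 4. The labels name no batch. Fits without siFAM129B library 4 hold replicates 3 and 4 of siNC but only replicate 3 of siFAM129B, so the groups there differ in replicate number.

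Neighbouring steps of lipid metabolism gave 0 calls in limma, as all genes did. Among 13 genes of SREBP processing and sterol-regulated degradation, 9 lay below 0 with all libraries and 8 without library 4; Erlin1, a part of the complex that degrades sterol-regulated proteins, had -0.24 ± 0.12 (SE) and the SREBP protease Mbtps2 -0.40 ± 0.27 (SE), which became -0.17 and -0.081 without library 4. Of 14 isoprenoid branch genes 9 lay below 0, and 7 without library 4; the prenyl protein protease Zmpste24 had -0.29 ± 0.17 (SE) and the prenyltransferase subunit Pggt1b -0.21 ± 0.12 (SE), which became -0.12 and -0.19 without library 4. Of 19 genes of cholesterol uptake, transport and esterification 10 lay above 0, and 14 without library 4. Npc2, which hands cholesterol out of the lysosome, averaged 170.02 ± 22.9 FPKM (SD, n = 4) in siFAM129B and 142 ± 11.3 FPKM (SD, n = 4) in siNC, with groups that did not overlap, as in 1.9% of tested genes in that direction. Its log2 difference was 0.25 ± 0.11 (SE; adjusted p = 0.784), and Gramd1a, a sterol transporter at membrane contacts, had 0.26 ± 0.12 (SE). Without library 4 these were 0.16 and 0.20.

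Genes of the LXR branch, which responds to excess sterol, mostly lay above 0, with 0 called. Of 9 receptors and targets, 8 lay above 0 with all libraries (median 0.064), where 50.6% of tested genes did. Without library 4, 9 did (median 0.10), against 50.7%. Nr1h2, the receptor LXR-beta, had 0.24 ± 0.14 (SE) and its partner Rxrb 0.18 ± 0.11 (SE), which became 0.15 and 0.10 without library 4. The targets Abca1, Mylip, Lpcat3, Arl4c and Abcg1 had -0.017, 0.0013, 0.040, 0.078 and 0.14. Without library 4 these became 0.20, 0.29, 0.017, 0.092 and 0.21. Abca1, at 0.476 to 2.00 FPKM, Mylip and Abcg1 fell from library 1 to library 4 in both groups. The fit without siFAM129B library 4 still held siNC library 4, their lowest siNC value, so it compares unlike replicate numbers. By library, 0, 0, 4 and 3 of the 9 genes lay below the siNC mean in siFAM129B libraries 1 to 4. Of 17 genes of fatty acid supply, elongation and desaturation 9 lay above 0, and 8 without library 4; the dehydratase Hacd3 had -0.16 ± 0.087 (SE) and the citrate carrier Slc25a1 0.23 ± 0.13 (SE), which became -0.13 and 0.099 without library 4. Of 23 genes of fatty acid activation and glycerolipid synthesis 9 lay above 0, and 11 without library 4. Pcyt2, of phosphatidylethanolamine synthesis, had 0.32 ± 0.16 (SE) and Agpat5, an acyltransferase, -0.17 ± 0.099 (SE); without library 4 they had 0.14 and -0.16. Of 18 fatty acid oxidation genes 14 lay above 0 (median 0.075), and 12 without library 4 (median 0.036). Cpt1b, the muscle carnitine palmitoyltransferase, averaged 2.77 ± 0.572 FPKM (SD, n = 4) in siFAM129B and 2.07 ± 0.0551 FPKM (SD, n = 4) in siNC, a log2 difference of 0.28 ± 0.12 (SE) that became 0.21 without library 4. Etfb, an electron transfer subunit, had 0.34 ± 0.18 (SE), which became 0.13 without library 4.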

How the data were processed

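The deposited table gives 1 FPKM value per gene and library, computed by the authors; per the submitters' processing notes the genome build is mm9. Which aligner, counting tool and gene models they used is not given in the sources used here. Per the labels' protocols, libraries were made from poly(A)-selected RNA. Columns starting with N and F were matched to siNC and siFAM129B titles by letter and replicate number; for F the match rests on the titles alone. FPKM depends on library composition, so a shift in some genes moves others.

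Differences were tested in limma 3.58.1 (R 4.3.3) on log2(FPKM + 1), letting the prior variance follow the mean level. The 11025 genes whose mean reached 1 FPKM entered, and Benjamini-Hochberg adjustment ran over all of them at 0.05. An alternative ran limma's voom on recovered reads, scaled by median ratios. The pseudocount of 1 understates changes of low genes. Whole reads were recovered for 16478 of 16479 genes with a value (within 0.001 of a read), as the smallest whole numbers that give each gene's ratios. Reads per gene and totals are therefore lower bounds, and implied lengths, which rest on both, are approximate. GC content came from GENCODE M21, with a symbol match for 96.9% of the genes in the fit. The fit was tested on simulated data whose noise was drawn independently for each gene and library. That test held no shift shared by the genes of a library, so it does not cover the behaviour of siFAM129B library 4.

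The members and lists were chosen with earlier results of these data known. Values by library are given for members without overlap, the most abundant member of each role, and the 4 of each role with the smallest p; Insig2, Fasn and Scd1 were added after their values were seen. For other lists at most 2 genes by smallest p are named, apart from Tmem97 and the LXR targets, added after their values were seen.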

Additional observations from a re-analysis of the deposited data

Results flagged for a closer look

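In siFAM129B library 4, 11 of the 32 members and Fam129b lay further from the other 3 siFAM129B libraries than the 95% limit for 1 value among 4 allows, while 0 of the groups of siNC did; 66 groups of 4 were looked at, and chance alone flags about 1 in 20. Values stood apart on the high side for 7 of the 12 genes: Mvk at 34.1 FPKM, Pmvk at 46.3, Mvd at 21.8, Fdps at 176, Scap at 26.3, Fads1 at 86.5 and Fam129b at 128 FPKM. They stood apart on the low side for Hmgcs1 at 50.3 FPKM, Insig1 at 28.0, Stard4 at 14.0, Acly at 53.0 and Scd2 at 297 FPKM. The flags share a single library and are not separate observations.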

How the results depend on the processing

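No member was called under any of the 21 alternatives, and 13 of 32 kept the sign of their difference in all of them, among them Idi1, Cyp51, Sc5d, Hsd17b7, Acly, Srebf1 and Fasn. The median over the 32 members was -0.048 and moved by more than the spread between libraries only when libraries were rescaled to an equal FPKM sum (-0.11), where the median of all tested genes was -0.056. Leaving out 1 library at a time gave medians from -0.064 to -0.040, between 9 and 17 sterol enzymes below 0 (11 with all), 1 to 4 control genes (3 with all), 5 to 7 fatty acid enzymes (7 with all) and 0 to 1 genes called in the whole table; 17 and 1 are without siFAM129B library 4. Sterol enzymes below 0 numbered 17 in replicates 1 and 2 alone and 18 in a fit that left out library 4 and took the replicate pair (1 with 2, or 3 with 4) as covariate. Control genes below 0 numbered 5 after rescaling, 0 with array weights and 0 in that covariate fit, and fatty acid enzymes 4 with array weights. Genes called in the whole table numbered 1 after quantile normalization, 2 with array weights, 5 in the covariate fit without library 4 and 10 in replicates 1 and 2 alone. voom without library 4, added after the data were seen, gave 1 call, 17 sterol enzymes and 1 control gene below 0. Where these values moved, the cause was not tested. Same-numbered libraries correlated at 0.53, 0.25, 0.045 and 0.12 in their deviations from group means, and since 1 was not over 0.1 the numbers were not taken to pair the samples; 1 of 4 siNC libraries correlated best with its own number; with a replicate block 0 genes were called and the median was -0.048. Each member had at least 437 reads in each library. The median width of the members' 95% intervals to either side was 0.26 with all libraries and 0.16 without library 4.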

Other observations

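Ratios between related genes overlapped between siNC and siFAM129B libraries 1 to 3. Scd2 was 2.17 to 2.63 times Scd1 in siNC and 2.16 to 2.45 times in siFAM129B libraries 1 to 3, and 2.73 times in library 4. Srebf2 was 2.34 to 2.74 times Srebf1 in siNC and 2.35 to 2.57 times in siFAM129B libraries 1 to 3, but 1.87 times in library 4. Insig1 was 1.28 to 1.54 times Insig2 in siNC and 1.09 to 1.497 times in siFAM129B, lowest in library 4. Acaca exceeded its mitochondrial relative Acacb, which stood between 0.128 and 0.290 FPKM, by 61.5-fold or more in every library.

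Tmem97, a sterol-responsive membrane protein in the processing list, was chosen after its values were seen. It stood at 40.03, 43.2, 48.6 and 55.6 FPKM in siNC libraries 1 to 4 and at 31.7, 38.3, 43.7 and 51.2 FPKM in siFAM129B libraries 1 to 4, and the groups overlapped. Its log2 difference was -0.19 ± 0.16 (SE) with all libraries and -0.30 ± 0.13 (SE) without library 4, and it did not pass the test (limma adjusted p = 0.784 and 0.870). Tmem97 rose from library 1 to library 4 in both groups. The fit without siFAM129B library 4 still held siNC library 4, the highest value, so the -0.30 compares unlike replicate numbers.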
